A study of Mus musculus with 2 samples.

Results

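The cells described here were single periosteal cells with UMIs (unique molecular identifiers, each standing for 1 captured transcript) of perineurial-like marker genes. A cell was a member if it had at least 500 detected genes and under 25% mitochondrial UMIs, a UMI of at least 3 of the 6 genes Slc2a1, Cldn1, Abcb1a, Sbspon, Stra6 and Luzp2, and a UMI of fewer than 3 of the 6 endothelial genes Cdh5, Pecam1, Flt1, Ptprb, Tie1 and Adgrl4. Of 12233 cells that passed the filter, among 13587 barcodes, 53 were members. The control library held 46 of them among 5485 passing cells and the Piezo1 fl/fl library 7 among 6748. Since the members were selected on measured counts, their levels against other cells are a description and carry no test.

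Periosteal cells were taken from femurs and tibias of mice of the genotypes Prx1 Cre; Ai9/+ (control) and Prx1 Cre; Ai9/+; Piezo1 fl/fl, both at 8 weeks. The Prx1 Cre transgene is active in limb mesenchyme and switches on the red Ai9 reporter, which all animals carried, and in the second genotype it also acts on the floxed Piezo1 gene. Reporter-positive cells were sorted and captured on the BD Rhapsody system, in 1 whole-transcriptome library per genotype. The number of animals behind a library is not given in the sources used here, so a difference between genotypes cannot be told apart from a difference between the 2 libraries. All intervals below are 95% intervals that cover counting error alone.

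Piezo1, the targeted mechanosensitive channel gene, had 142 UMIs or 5.17 CPM (UMIs scaled to 1e6 per group of cells, 4.35 to 6.09) in passing control cells and 72 UMIs or 2.27 CPM (1.77 to 2.85) in passing Piezo1 fl/fl cells. Reads were taken near the 3′ end of transcripts, which need not cover the floxed part, so this is no check of the deletion. Members of both libraries had 0 Piezo1 UMIs. Members held 227219 UMIs in the control library, with a median of 4747 per cell (906 to 13060) against 4086 in other passing cells. The 7 Piezo1 fl/fl members held 92052 UMIs, with a median of 9073 per cell against 3681 in other cells. The libraries shared 50 barcodes, of which 1 belonged to a control member and 0 to a Piezo1 fl/fl member.

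The perineurium is the sleeve of flattened cells that surrounds each bundle of axons in a peripheral nerve. Its cells are joined by tight junctions, lie between basement membranes and carry glucose transporters and efflux pumps, so that together with the endothelium of the nerve's vessels they form the blood-nerve barrier. The periosteum is richly innervated, and digested periosteum can therefore contain pieces of nerve sheath.

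The 6 marker genes have different roles in such a barrier. Slc2a1 encodes the glucose transporter GLUT1, Cldn1 the tight junction protein claudin-1, Abcb1a a P-glycoprotein efflux pump and Stra6 the receptor for retinol-binding protein, while Sbspon encodes a matrix protein with somatomedin B and thrombospondin domains and Luzp2 a leucine zipper protein. By feature identifier, 31107 of 31253 features matched GENCODE vM21 (GRCm38). There Slc2a1 lies at chr4:119108711-119137983 (+ strand), Cldn1 at chr16:26356642-26371841 (- strand), Abcb1a at chr5:8660077-8748575 (+ strand), Sbspon at chr1:15853862-15892722 (- strand), Stra6 at chr9:58063788-58153996 (+ strand) and Luzp2 at chr7:54835498-55268885 (+ strand). Stra6 overlaps Ccdc33 on the other strand over 55036 bases, and Slc2a1 overlaps 2 antisense genes. Whether counting used strand is not given in the sources used here, so reads of such pairs cannot be told apart.

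The promoters of Slc2a1 and Cldn1, the genes after which the cells are named, are shown from 250 bases before to 50 after the RefSeq start (GRCm38.p6, strand of the gene). Capitals mark matches of CCNCNCCC on either strand (GGGNGNGG as read here), a motif of the GC-rich kind bound by Krüppel-like factors, of which Klf5 was among the genes detected in the members.
Slc2a1 promoter, chr4:119108495-119108794: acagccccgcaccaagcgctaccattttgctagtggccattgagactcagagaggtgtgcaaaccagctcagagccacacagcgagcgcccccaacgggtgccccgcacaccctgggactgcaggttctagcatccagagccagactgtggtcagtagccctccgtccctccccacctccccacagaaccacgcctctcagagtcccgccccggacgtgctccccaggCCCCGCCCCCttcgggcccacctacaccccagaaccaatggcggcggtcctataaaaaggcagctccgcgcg
Cldn1 promoter, chr16:26371790-26372089: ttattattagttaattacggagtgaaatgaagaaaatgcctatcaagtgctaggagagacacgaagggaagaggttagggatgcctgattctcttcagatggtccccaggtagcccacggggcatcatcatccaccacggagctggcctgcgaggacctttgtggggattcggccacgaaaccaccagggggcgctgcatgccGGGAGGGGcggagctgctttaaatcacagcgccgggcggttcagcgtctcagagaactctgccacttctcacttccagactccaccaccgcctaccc
Slc2a1 held 2 overlapping matches and Cldn1 held 1, where 49.5% of all 32851 promoters in the table held at least 1. A match describes the letters only.

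The 2 libraries differed in how many of the 6 markers a cell carried. In the control library 9 members had 3 markers, 9 had 4, 10 had 5 and 18 had all 6, whereas all 7 Piezo1 fl/fl members had exactly 3. Members were 0.839% of passing control cells (0.615% to 1.12%) and 0.104% of passing Piezo1 fl/fl cells (0.0417% to 0.214%). Cells with at least 4 markers were 0.675% of control cells (37 cells, 0.475% to 0.929%), and 0 of 6748 Piezo1 fl/fl cells had them, which allows a share of up to 0.0445%. Just outside the rule, cells with 2 markers were about as many in both libraries, 34 and 33. The endothelial limit removed 1 control cell with at least 3 markers and 0 Piezo1 fl/fl cells. With every cell thinned to 2000 UMIs before the rule was applied, 33 control cells and 1 Piezo1 fl/fl cell remained members, which are 0.746% and 0.0192% of the cells deep enough.

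**Figure D1:**
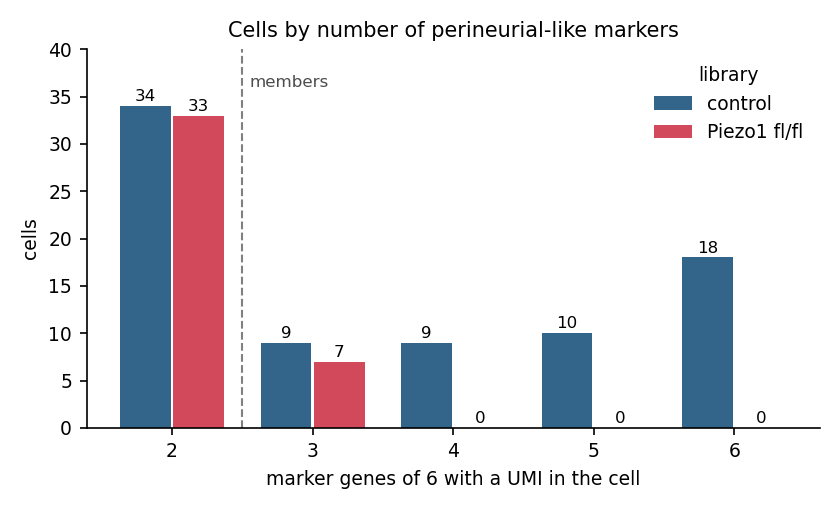
Number of cells (y axis) with a UMI of 2 to 6 of the 6 marker genes (x axis) and of fewer than 3 endothelial genes, in the control library (blue) and the Piezo1 fl/fl library (red); cells right of the dashed line are members. The libraries had 34 and 33 cells with 2 markers, and at 4 or more markers the Piezo1 fl/fl library had 0 cells.

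Cells of each library were also clustered on 2000 variable genes from which the rule's genes had been removed. In the control library 38 of 46 members (82.6%) fell in 1 cluster of 39 cells, and they included 36 of the 37 with at least 4 markers and all 18 with 6. The 39th cell had 2 markers and 893 UMIs, with 4 UMIs of Slc2a1 and 3 of Abcb1a. The same counts, 38 members among 39 cells, were found at resolutions of 0.4, 1 and 2. The other 8 control members lay in 4 clusters, 5 of them in a cluster of 342 cells led by Hsd11b1, F2rl1 and Hmcn2. The 7 Piezo1 fl/fl members were spread over 5 clusters of 162 to 645 cells and made up at most 0.617% of any of them. Scrublet called 1 control member and 0 Piezo1 fl/fl members doublets, of 45 and 66 calls in the libraries.

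Perineurial markers that the rule did not use were looked at next, from a list chosen with earlier results of these data known. The label of these cells rests on these markers, so they are no independent check of it. Of 10 such genes (Itgb4, Lypd2, Msln, Moxd1, Tenm2, Ntng1, Krt19, Casq2, Klf5 and Muc1), 9 were detected in control members, and 45 of the 46 control members had a UMI of at least 1. Among other passing control cells 13.8% did (751 of 5439). Of the 7 Piezo1 fl/fl members 3 did, against 13.6% of other cells. Cells with at least 2 of the 10 were often not members: 80 in the control library, of which 37 were members, and 47 in the Piezo1 fl/fl library, of which 1 was. Cells with at least 3 of the 10 numbered 33 in the control library, of which 30 were members, and 2 in the Piezo1 fl/fl library, of which 0 were members. Cells with at least 4 numbered 17 (16 of them members) and 0. These counts of outside markers were chosen after the data had been seen. The name perineurial-like is kept for the 38 control members of the shared cluster. For the 8 outside it the outside markers were mixed. All 8 had a UMI of at least 1 of the 10, with Klf5 in 5 cells at 251 CPM and Itgb4 in 3 at 71.9 CPM. Moxd1 and Tenm2 were also detected, while Msln, Ntng1 and Lypd2 had 0 UMIs. As shown further below, these 8 had few UMIs of Gatm, a gene not among the 10. Of the 8, 5 lay in the cluster led by Hsd11b1, F2rl1 and Hmcn2, and 1 in a cluster led by the smooth muscle genes Kcnmb1, Pln and Myh11. The name is not used for the 8, which lay outside the shared cluster and had mixed outside markers. All 46 stay in the values given here, since they passed the rule, and 1 of them, with 3 markers, had 45 UMIs of Rgs5 and 79 of Acta2, which mark mural cells. Few UMIs of the outside markers were found in the Piezo1 fl/fl members, so the name is not used for those members either. They are called below the 7 Piezo1 fl/fl cells that passed the rule.

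**Figure D2:**
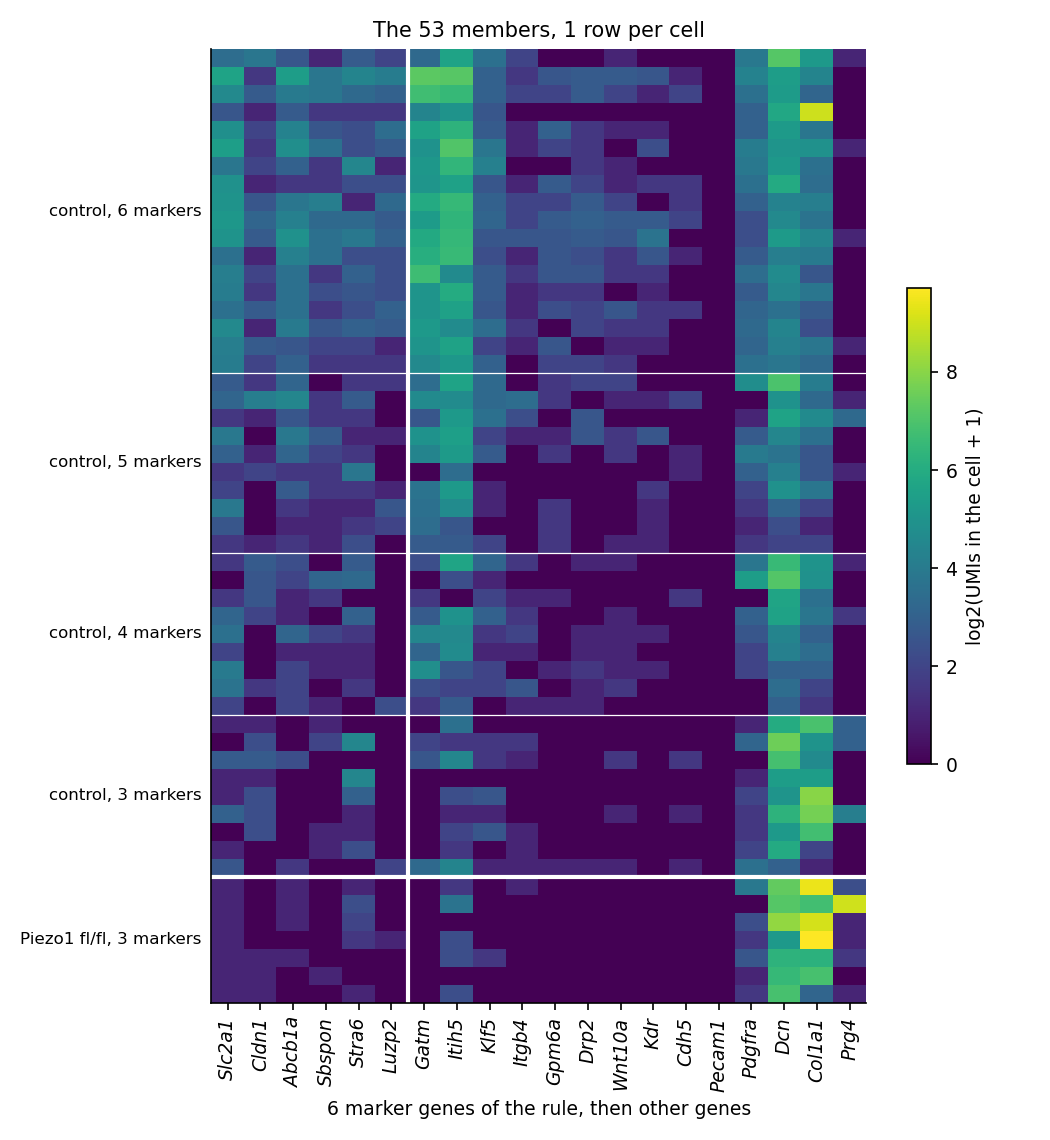
UMIs per cell, as log2 of the count plus 1, for the 53 members (rows, ordered by library, number of markers and depth) and 20 genes (columns). The 6 marker genes stand left of the vertical line, and the 7 Piezo1 fl/fl cells, with single UMIs of most markers and 0 UMIs of Gatm, stand at the bottom.

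In control members the 6 marker genes had medians of 1 (Luzp2) to 8 (Slc2a1) UMIs per cell. Slc2a1 had a median of 8 UMIs per member (up to 49) and 548 UMIs in all, or 2412 CPM (2214 to 2622) against 10.7 CPM in other passing cells. Abcb1a had a median of 5 UMIs per member (up to 41), and 1593 CPM against 13.5 in other cells. Stra6 stood at 1074 CPM against 3.70, Sbspon at 691 against 5.87, Cldn1 at 625 against 5.87 and Luzp2 at 519 against 9.24. Luzp2 was the marker with UMIs in the fewest control members, 25 of 46, and Slc2a1 in the most, 43 of 46. In the 7 Piezo1 fl/fl cells, by contrast, every marker UMI but those of Stra6 was a single one: Slc2a1 had 1 UMI in each of the 7 cells (76.0 CPM, 30.6 to 157), Abcb1a 1 in each of 4, Cldn1 1 in each of 3, and Sbspon and Luzp2 1 in 1 cell. Stra6 had 11 UMIs in 5 cells. Slc2a1 UMIs were also found in 6.72% of blood cells (44 of 655, median depth 2911) and 4.04% of Pi16 and Dpp4 fibroblasts (44 of 1088, median depth 5288) of the control library, against 93.5% of control members. At 2000 UMIs per cell these shares were 15 of 439 blood cells, 12 of 1005 fibroblasts and 32 of 39 members.

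Cells of 4 other groups were used for comparison in the control library: 299 endothelial cells (at least 3 of the rule's endothelial genes), 1088 Pi16 and Dpp4 fibroblasts and 1326 Gdf10 and Inmt fibroblasts (at least 3 of 6 genes each, 307 cells in both) and 655 blood cells (at least 3 of 10 leukocyte genes). Abcb1a was the marker that endothelial cells shared, at 272 CPM (238 to 309), and Cldn1, Stra6 and Luzp2 each had 0 UMIs in the endothelial cells. Stra6 stood at 10.9 CPM in Pi16 and Dpp4 fibroblasts and 2.33 in Gdf10 and Inmt fibroblasts. Cldn1 was at 8.39 and 13.4 CPM in the same 2 groups.

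Of the perineurial markers outside the rule, Klf5, a zinc finger transcription factor of epithelial tissues, had UMIs in 40 of 46 control members and stood at 968 CPM (845 to 1105) against 18.6 CPM in other cells, a log2 ratio of 5.70 (5.47 to 5.93). Itgb4, which encodes the integrin subunit that pairs with Itga6 to bind laminin, had UMIs in 30 members and stood at 290 CPM against 3.89 (log2 ratio 6.22, 5.76 to 6.68). Endothelial cells held Itgb4 at 80.0 CPM, and the 2 fibroblast groups at 0.868 and 1.23. Msln, which encodes the mesothelial surface protein mesothelin, had 26 UMIs in 15 members and 1 UMI in the 5439 other cells (log2 ratio 11.61, 9.0 to 16.96). Ntng1, a netrin anchored to the cell membrane, had 37 UMIs in 18 members (log2 ratio 5.17, 4.60 to 5.71). Tenm2, Moxd1, Lypd2, Casq2 and Krt19 had 7 to 23 UMIs in 4 to 9 members, and Muc1 had 0, which allows up to 13.2 CPM. The members so held the outside markers at very different detection rates, from 40 cells for Klf5 to 4 for Krt19. In the 7 Piezo1 fl/fl cells Klf5 had 2 UMIs, Itgb4 1, and Msln, Ntng1, Lypd2 and Krt19 had 0.

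Across all genes with at least 30 UMIs in the higher group, 3.99% were at least 2-fold higher and 24.8% at least 2-fold lower in control members than in other passing cells (307 and 1907 of 7701). The 307 higher genes all had intervals that leave out equal levels, which the filter of 30 UMIs in the members by itself ensures at 2-fold. A lower gene needed its 30 UMIs only in the far larger set of other cells, so the 2 directions are not alike in this. Of the 1907 lower genes 756 had such intervals, and 1045 had 0 UMIs in the members, so that many of the lower calls rest on few UMIs. List counts of control members given below carry the same limits and are to be read against the 3.99% and 24.8%. The median log2 ratio over all 7701 genes was -0.28.

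The 30 genes with the largest ratios in the control library (at least 30 UMIs and 50 CPM in members) were ranked in that library alone after the data had been seen, because only 7 cells passed the rule in the other. Gatm, the enzyme of the first step of creatine synthesis, had UMIs in 38 of 46 members with a median of 11.5 per cell (0 to 153) and stood at 5013 CPM (4726 to 5313) against 19.8 CPM in other cells (log2 ratio 7.99, 7.84 to 8.14). Among other cells it was found mainly in the blood group, at 189 CPM, and stood at 2.17 and 2.58 CPM in the 2 fibroblast groups. Itih5, a heavy chain of the inter-alpha-trypsin inhibitors that bind hyaluronan, was found in 44 members at 7627 CPM (7272 to 7995) against 290 CPM in other cells (log2 ratio 4.72). Unlike Gatm, Itih5 was also found in most fibroblasts, at 618 and 469 CPM in the 2 groups. Itih2, of the same family, had a log2 ratio of 4.81 (4.50 to 5.11).

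Several of the 30 encode secreted proteins, although no list of such genes was counted. Wnt10a, a Wnt ligand, had 61 UMIs in 29 members and 3 in all other cells (log2 ratio 11.25, 9.64 to 13.57). Notum, an enzyme that inactivates Wnt ligands by removing their lipid, had 70 UMIs in 16 members (log2 ratio 7.20, with bounds of 6.68 and 7.73). Sfrp5, another secreted Wnt inhibitor, had 47 UMIs, but in 4 members, and 30 of them came from 1 cell. Tgfa, a ligand of the EGF receptor, had 37 UMIs in 23 members (log2 ratio 6.72), and Bmp7 had 72 in 21 members (log2 ratio 6.48). All 5 had 0 UMIs in the 7 Piezo1 fl/fl cells, which allows up to 32.6 CPM for each.

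Other genes of the 30 had varied roles. Gpm6a, a membrane glycoprotein of neurons, had 79 UMIs in 25 members (log2 ratio 6.46, 6.02 to 6.89). Drp2, dystrophin-related protein 2, had 81 UMIs in 25 members (log2 ratio 6.29, 5.87 to 6.71), and the Schwann list gene Prx, not among the 30, whose product periaxin binds Drp2 in myelinating Schwann cells, had 24 UMIs in 14 members (log2 ratio 6.10, 5.31 to 6.86). Mpzl2, an adhesion protein of the immunoglobulin superfamily, was found in 33 members (612 CPM against 12.4, log2 ratio 5.63). Alcam, a cell adhesion molecule of growing axons and endothelium, had a log2 ratio of 4.37, Gpc6, a cell surface heparan sulfate proteoglycan, of 4.14 and Slc43a1, a transporter of large neutral amino acids, of 4.47. Bhmt, an enzyme of methionine metabolism, had 30 UMIs in 12 members (log2 ratio 9.81, 8.31 to 11.78). The highest ratio, 11.86 for the gap junction gene Gjb2, came from 31 UMIs in 2 cells, 30 of them in 1. Olfr1033, Tekt2, Kank4, Ralgps2, Egflam, Thsd4, Egr3, C130074G19Rik, Spon2, Clec1a and Gna14 completed the 30, with log2 ratios of 4.16 to 6.12. Ralgps2 overlaps the fibroblast gene Angptl1 on the other strand, and Bhmt, Notum, Kank4, Egflam and Thsd4 overlap antisense genes.

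**Figure D3:**
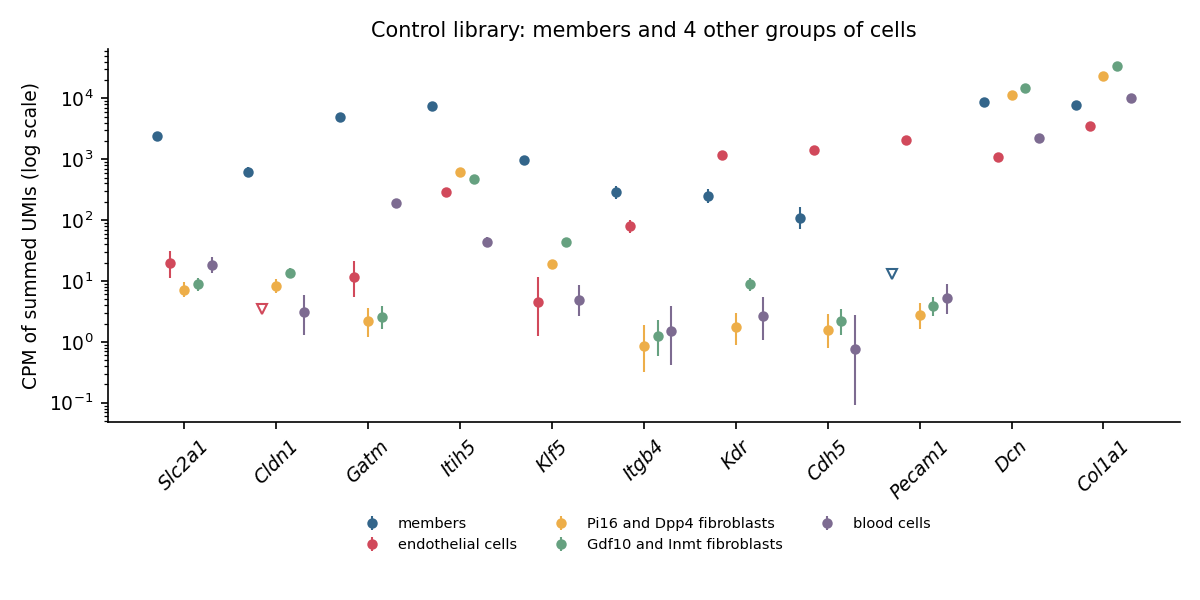
CPM of summed UMIs (log axis) of 11 genes in the control library, in members (blue), endothelial cells (red), Pi16 and Dpp4 fibroblasts (yellow), Gdf10 and Inmt fibroblasts (green) and blood cells (violet). Bars are exact 95% Poisson intervals and open triangles mark groups with 0 UMIs at the level of 3 UMIs; members stand above the other groups for the genes from Slc2a1 to Itgb4, between endothelial cells and fibroblasts for Kdr and Cdh5, and at 0 for Pecam1.

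Genes of junctions and of the basement membrane are the structural side of a perineurial cell. Of 9 tight junction genes with enough UMIs, 3 were at least 2-fold higher and 2 lower in control members (list median 0.60). Tjp1, the scaffold protein ZO-1, was at 726 CPM (620 to 846) against 81.3 in other cells (log2 ratio 3.16), F11r, the junctional adhesion molecule A, had a log2 ratio of 3.06 (2.58 to 3.51) and Cgnl1, paracingulin, of 1.34 (0.82 to 1.82). Ocln, which encodes occludin, fell short of the UMIs needed for the count, with 10 UMIs in 6 members (log2 ratio 7.64, 6.04 to 9.39). Cldn5, the claudin of endothelium, had 0 UMIs in members. Of 10 adherens, desmosome and gap junction genes 2 were higher and 4 lower (median -0.53). Of the 4 lower genes 3 had 0 UMIs in members, and 1 had an interval that left out equal levels. Ctnna1 had a log2 ratio of 1.17, Gja1, the main connexin of fibroblasts and osteoblasts, one of -1.75 (-2.17 to -1.35), and Gjb2 is the gene of 2 cells described above.

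Basement membrane receptors were higher in 5 of 9 and lower in 1 of 9 cases (median 1.05). The laminin-binding integrin subunits Itga6 and Itga7 stood at 563 and 304 CPM against 46.1 and 18.7 in other cells, log2 ratios of 3.61 (3.34 to 3.87) and 4.02 (3.64 to 4.39), and the collagen-binding Itga1 had a ratio of 2.49. Their partner Itgb1 was at 973 CPM against 1017. Dag1, which encodes dystroglycan, and Bcam, a laminin receptor, had ratios of 1.05 and 1.64. Of 15 basement membrane components 2 were higher and 2 lower (median -0.08): Col18a1 stood at 511 CPM against 62.9 (log2 ratio 3.02, 2.74 to 3.29) and Lamb2 at 603 against 196, whereas Lamb1 had 10 UMIs and a log2 ratio of -1.45 (-2.52 to -0.57). Col4a1, Col4a2, Nid1 and Hspg2, which every basement membrane contains, had log2 ratios of -0.18 to 0.14. Differences thus varied within both lists.

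Of 11 barrier transport genes 1 was at least 2-fold higher and 3 lower (median -0.11). Slc16a1, the lactate and pyruvate transporter MCT1, stood at 194 CPM against 31.2 (log2 ratio 2.63, 2.16 to 3.07), while the taurine transporter Slc6a6 and the water channel Aqp1 had ratios of -1.49 and -1.67. The organic anion transporters Slco1c1 and Slco1a4 had too few UMIs for the count, with 15 UMIs in 9 members against 12 in all other cells (log2 ratio 7.23, 6.03 to 8.46) and 9 in 8 members against 9 (6.91, 5.40 to 8.41). Glycolytic genes were at least 2-fold higher in 0 and lower in 4 of 8 cases (median -1.11), and of these the interval of Ldha alone, with 11 UMIs in members, left out equal levels. Genes of retinoid handling, the pathway of the marker Stra6, were higher in 6 and lower in 4 of 12 cases (median 0.62). The higher ones included Rbp4, Rdh10, Aldh1a1, Dhrs3 and Rarg, with log2 ratios of 1.02 to 2.56. Rdh10 and Aldh1a1 encode enzymes that turn retinol into retinoic acid. Crabp1, Cyp26a1 and Cyp26b1, the latter 2 being enzymes that break down retinoic acid, had 0 UMIs in members against 17.6, 28.3 and 42.5 CPM in other cells.

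Fibroblast matrix genes were lower in control members in 16 of 23 cases and higher in 0 (median -1.60 against -0.28 over all genes), and all 16 intervals left out equal levels. Col1a1 was at 7667 CPM (7311 to 8035) against 40829 in other cells, Col3a1 at 4071 against 17442, Fn1 at 493 against 3164 and Mfap4 at 17.6 against 655. Exceptions were Dcn at 8608 CPM against 9260 and Ogn at 2649 against 2365, and Dcn had UMIs in all 46 control members. Pdgfra, a receptor of mesenchymal cells, was at 1488 CPM against 480 (log2 ratio 1.63, 1.47 to 1.79). Of 17 limb mesenchyme genes Pdgfra was the 1 higher, and 7 were lower (median -0.93), with Prrx1, whose regulatory sequence drives the Cre, at 383 CPM against 794 and UMIs in 28 members. Hoxc8 and Pitx1 had 0 UMIs in members against 51.8 and 26.6 CPM. Of the 7 lower limb mesenchyme genes 4 had intervals that left out equal levels. Of the 10 genes ranked lowest in the control library 9 had 0 UMIs in members (F13a1, Lyve1, Mrc1, Ifi207, Acan, Lcp1, Ctsh, Ccl4 and C1qa, mostly genes of macrophages), and the bone and cartilage collagenase Mmp13 had 1 UMI against 551 CPM.

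Signalling lists were mixed. Of 7 hedgehog genes, the pathway by which Schwann cells induce the perineurium in development, 1 was higher and 3 lower (median -0.48): the transducer Smo had a log2 ratio of 1.30 (0.79 to 1.77), Gas1 and Hhip had -1.58 and -2.86, and Ptch1 and Gli1, targets of the pathway, had too few UMIs for the count with 17 and 6. Of 8 neurotrophic genes 1 was higher and 1 lower (median 0.14), with the GDNF receptor Gfra1 at 198 CPM against 18.2 (log2 ratio 3.44, 2.97 to 3.89) in 25 members. Of 19 axon guidance genes 6 were higher and 10 lower (median -1.01). The higher ones were Efnb1 (log2 ratio 2.67), Sema5a (2.14), Plxna2 (1.72), Ntn1 (1.51), Nrp2 (1.14) and Ntn4 (1.02), and Slit2, Slit3 and Sema3e were among the lower. Of 12 genes of mechanosensing and the YAP pathway 4 were higher and 3 lower (median 0.58). The cofactor gene Vgll3 had a log2 ratio of 3.74 (3.46 to 4.01) and Tead1, Amotl2 and Wwtr1 had 1.63, 1.45 and 1.05, whereas the YAP targets Ccn1 and Ccn2 had -1.55 and -1.78. Genes induced by dissociation were higher in 2 and lower in 0 of 11 cases (median 0.22), with Nr4a1 at 2152 CPM against 441, and the share of this in the other results was not tested.

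**Figure D4:**
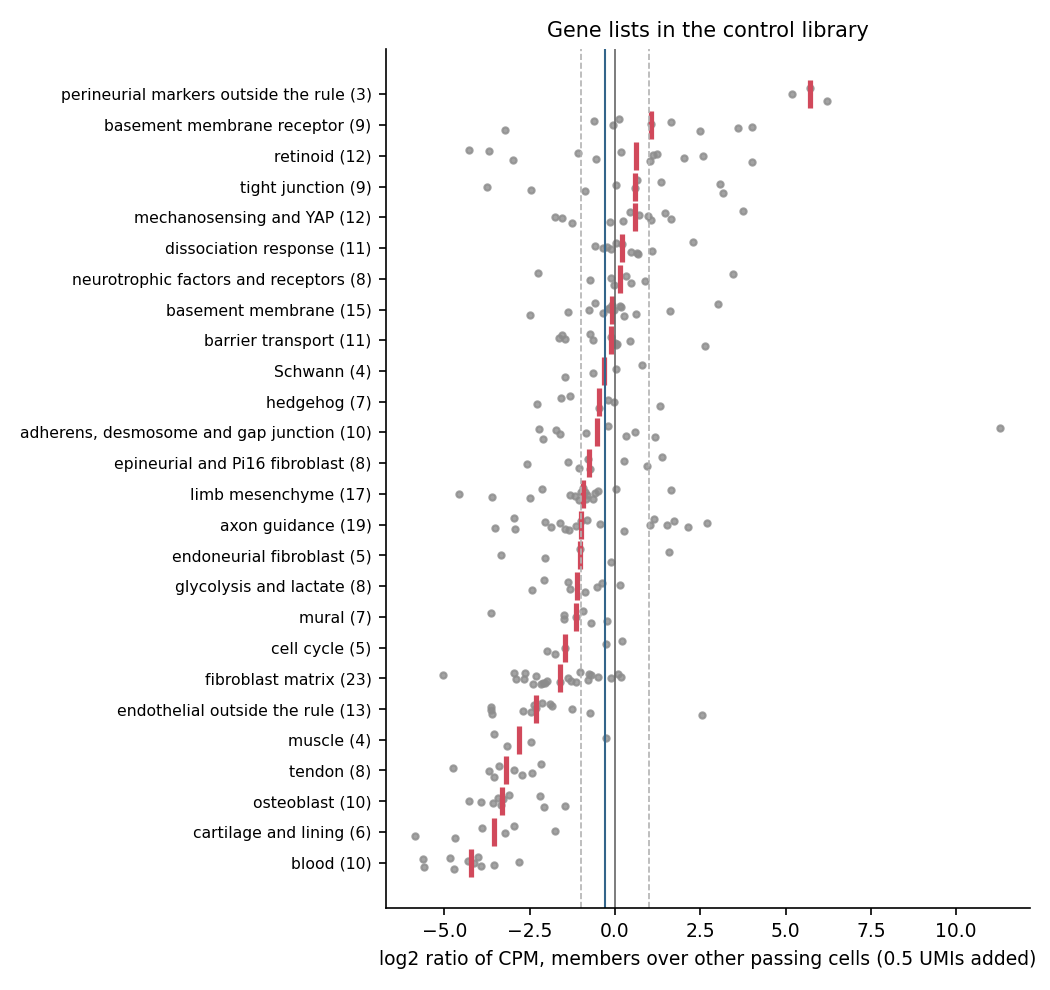
log2 ratio of CPM between members and other passing cells of the control library (x axis, 0.5 UMIs added to both counts) for the genes of 26 lists (rows, number of genes with enough UMIs in brackets). Grey points are genes, red bars list medians, dashed lines 2-fold and the blue line the median of all 7701 genes. The outside perineurial markers stand at the top with a median of 5.70. It covers the 3 of 10 that had enough UMIs, which they reached in the members, where they are high. The blood list stands at the bottom with -4.22.

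Markers of neighbouring cell types were read over whole lists. Of 13 endothelial genes outside the rule 11 were at least 2-fold lower in control members and 1, Kdr, was higher (median -2.31), and 8 of the 14 listed had 0 UMIs. Kdr, the VEGF receptor 2, had 57 UMIs in 21 members, 251 CPM (190 to 325) against 1173 in endothelial cells, 1.74 in Pi16 and Dpp4 fibroblasts, 8.84 in Gdf10 and Inmt fibroblasts and 2.66 in blood cells. Cdh5, a gene the rule limits but does not forbid, had 25 UMIs in 14 members, 110 CPM (71.2 to 162) against 1441 in endothelial cells and 1.59 in Pi16 and Dpp4 fibroblasts. At 2000 UMIs per cell 10 of 39 members, 5 of 1005 of those fibroblasts and 0 of 439 blood cells had a Cdh5 UMI. Pecam1 had 1810 UMIs and Cdh5 1262 in the endothelial cells, and Pecam1 had 0 in the members. Both genes belong to the rule that defined these groups, so their levels are a description. The source of the Cdh5 UMIs in members was not tested. In members the other endothelial genes of the rule had 0 or 1 UMI each, and Cldn5, Tek and Egfl7 had 0. With members limited to the 30 control cells without any of the rule's endothelial genes, the median of the outside perineurial markers with enough UMIs was 5.74.

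Sox10, the transcription factor of Schwann cells, had 0 UMIs in control members. Of the same list Prx, given above, and Cdh19, a cadherin of Schwann cell precursors, had log2 ratios over 6 from few UMIs, in Cdh19 15 UMIs in 7 members (6.29, 5.25 to 7.29). Of the 4 Schwann genes with enough UMIs 0 were higher and 1 lower (median -0.31). Endoneurial fibroblast genes were higher in 1 and lower in 3 of 5 cases (median -1.02), Etv1 with a log2 ratio of 1.57 and Wif1 and Osr2 with -3.66 and -2.28. Of the 8 genes of epineurial and Pi16 fibroblasts 1 was higher, Anxa3, and 3 lower (median -0.76), and 22 UMIs of Pi16 itself came from 2 members. Blood, tendon, osteoblast and cartilage and lining lists were lower throughout (10 of 10, 8 of 8, 10 of 10 and 6 of 6 genes, medians of -4.22 to -3.18). Intervals left out equal levels in 9, 8, 9 and 6 of these genes. Muscle genes were lower in 3 of 4, mural genes in 4 of 7 and cell cycle genes in 3 of 5, against 24.8% of all genes. Of these, 3 muscle, 3 mural and 1 cell cycle gene had such intervals. With cells of 2 markers included the cartilage and lining median was 1.31 and the mural median 0.17, and with blood cells left out of both sides the blood median was 0.23. The blood list summed to 79.2 CPM in members against 2037 in other cells, with Ptprc, the CD45 gene of all leukocytes, at 0.

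The 46 control members were not all alike. The 38 in the shared cluster held Gatm at 6622 CPM, Itih5 at 9945, Slc2a1 at 3130, Klf5 at 1201 and Tjp1 at 892, and the 8 outside it held them at 53.9, 485, 198, 251 and 216. Stra6 was at 1049 CPM inside and 1150 outside, and Cldn1 at 694 and 413, so these 2 markers alone did not separate the sets. Matrix genes went the other way: Col1a1 stood at 5526 CPM inside and 14263 outside, Fn1 at 169 and 1491, and Vim at 1212 and 5676. Gpm6a, Drp2, Kdr, Msln, Ntng1 and Npnt had 0 UMIs in the 8 outside members. These sets come from the members' own genes, so the differences are a description. By number of markers, Gatm was at 298 CPM in the 9 control members with 3, 2410 with 4, 3517 with 5 and 8918 with 6, against 7.25 in the 34 cells with 2, and Klf5 was at 281, 912, 1182 and 1289 against 25.4. Both genes stood higher at each added marker, but not all genes did. Itgb4 was at 105, 489, 412 and 291 CPM with 3, 4, 5 and 6 markers, and Msln at 0, 163, 220 and 126. Of the 9 members with 3 markers only 2 lay in the shared cluster.

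Within the cluster the 25 members with a Luzp2 UMI and the 13 without were set side by side after the data had been seen. Those with Luzp2 held Gatm at 8144 CPM against 2734, Notum at 535 (414 to 681) against 62.2 (12.8 to 182) and Kdr at 430 (322 to 562) against 82.9 (22.6 to 212). Those without held Itgb4 at 601 (402 to 863) against 268 (184 to 376), Moxd1 at 290 against 16.2 and Vim at 2300 against 787. The median depth was 4989 UMIs with Luzp2 and 3576 without, and the part of depth in these differences was not tested.

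**Figure D5:**
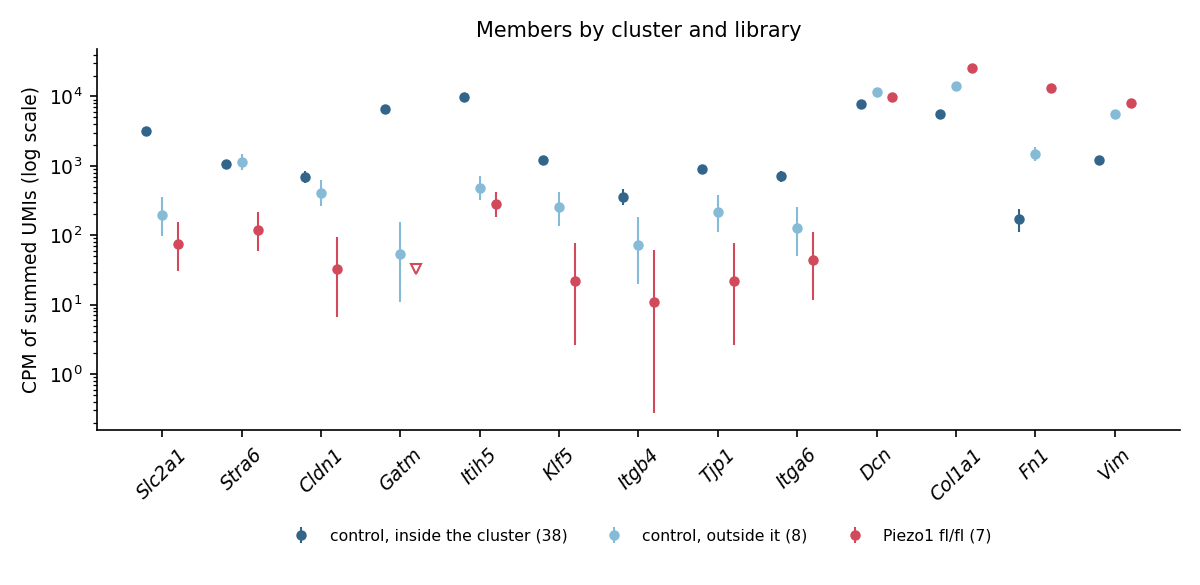
CPM of summed UMIs (log axis) of 13 genes in the 38 control members inside the shared cluster (dark blue), the 8 outside it (light blue) and the 7 Piezo1 fl/fl cells that passed the rule (red), with exact 95% Poisson intervals; the open triangle marks 0 UMIs at the level of 3 UMIs. Gatm stood at 6622 and 53.9 CPM and at 0 UMIs in the 3 sets, while Dcn stood between 7700 and 11407 CPM in all of them.

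The 7 Piezo1 fl/fl cells that passed the rule lay in clusters with different leading genes, 1 of them in a cluster led by Prss35, Mmp13 and the osteocalcin gene Bglap. They held 0 UMIs of Gatm, Wnt10a, Notum, Gpm6a, Drp2, Kdr and Cdh5, and 282 CPM of Itih5 (185 to 414) against 296 in other Piezo1 fl/fl cells. Of the 30 genes ranked in the control library, 20 had 0 UMIs in these 7 cells and 6 had a log2 ratio above 0 against other cells. Their fibroblast matrix list was higher in 4 and lower in 4 of 23 genes (median 0.26), with Col1a1 at 25898 CPM and Fn1 at 13156. In that library 17.4% of genes were counted as at least 2-fold higher and 22.5% as at least 2-fold lower in the 7 cells (1498 and 1938 of 8627). Of these, 89 and 504 had intervals that left out equal levels. The counts used ratios with 0.5 UMIs added to both sides, which can make a gene with 0 UMIs in the 7 cells count as higher. Ntng1 (0 UMIs against 44 in other cells) and Muc1 (0 against 35) were counted so. The 1498 are therefore not a measure of how many genes were higher in the 7 cells. The 7 cells were also unlike each other: 1 cell held 522 of the 531 Prg4 UMIs and all 44 Csf2 UMIs, and Col1a1 ranged from 8 to 843 UMIs per cell. Of the 7, 1 cell also met the rule of the blood group.

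Set against the 46 control members, 11.7% of genes were at least 2-fold higher and 34.0% at least 2-fold lower in the 7 Piezo1 fl/fl cells (156 and 451 of 1328, median log2 ratio -0.57). With the median set to 0 the counts were 244 and 303. The 5 highest, Csf2, Slurp1, Cxcl2, Tnfaip6 and Hbegf, are genes of secreted and inflammatory proteins, and 1 cell gave 44 of 44, 49 of 64, 84 of 86, 225 of 228 and 73 of 73 of their UMIs. The 5 lowest were Gatm, Fxyd6, Fgl2, Npnt and Hlf. Fxyd6, a regulator of the sodium pump, stood at 1272 CPM in control members and 0 UMIs in the 7 cells, Fgl2, a secreted fibrinogen-like protein, at 2764 CPM and 1 UMI, Npnt, a basement membrane ligand of integrins, at 704 CPM and 0, and Hlf, a leucine zipper transcription factor, at 682 CPM and 0. Perineurial markers outside the rule were lower in all 3 of the 10 that had enough UMIs, which they reached in the control members. Basement membrane receptors were lower in 5 of 7 genes, and matrix genes were higher in 15 of 20. Genes induced by dissociation were lower in 8 of 11, and the part of this in the contrast was not tested. An effect of Piezo1 loss within perineurial-like cells cannot be told apart here from the difference in makeup of the 2 sets.

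Genes higher than in other cells in both libraries, with at least 30 UMIs and 50 CPM in the members of each, numbered 138. Of the 30 genes ranked in the control library, Itih5 had the most UMIs in the Piezo1 fl/fl members, 26, below the 30 needed here. The 25 ranked first by the smaller of the 2 ratios shared 0 genes with those 30, which this filter by itself ensures. They included Fam180a (log2 ratios of 2.01 among control cells and 3.07 among Piezo1 fl/fl cells), Igfbp7 (1.45 and 1.21), Igfbp6 (1.29 and 1.05), Matn2 (1.54 and 1.76), Cryab (1.23 and 1.59), Sdc2 (1.14 and 1.60), Nbl1 (2.48 and 0.90) and Prss23 (2.38 and 0.63). Igfbp6 and Igfbp7 encode binding proteins of insulin-like growth factors, Matn2 a matrix protein, Cryab a small heat shock protein and Nbl1 a BMP antagonist. In the control library Igfbp7 stood at 2002 CPM in members and 1902 in endothelial cells. Genes higher in endothelial cells than in members included Plk2, Cd151, Tmod3, Tpm3, Tpm4 and Kif5b. Pcolce2 was at 843 CPM in Pi16 and Dpp4 fibroblasts against 537 in members. Others, such as Fam180a and Nbl1, were higher in members than in endothelial cells and both fibroblast groups. A single Piezo1 fl/fl cell often gave most of a gene's UMIs: 46 of 52 in Fam180a, 42 of 42 in Plk2 (log2 ratios of 1.99 and 3.57), 30 of 33 in Prss23, 28 of 32 in Cstb, 73 of 90 in Pcolce2, 120 of 163 in Sdc2, 29 of 52 in Cryab, 118 of 215 in Igfbp7 and 112 of 209 in Igfbp6. In Kif5b and Trps1 it gave 37 of 61 and 19 of 34. The other 16, Cd151, Fam102b, Trps1, Pcolce2, Mat2a, Tmod3, Cyb5r3, Cstb, Eprs, Tpm3, Ywhae, Ezr, Tpm4, Kif5b, Rock2 and Ywhaz, had log2 ratios of at most 1.94 in either library. Of the 10 ranked lowest in both, Cd74, H2-Eb1, F13a1, Lyve1, Mrc1, Ccl4, Lcp1, C1qa and S100a9 are genes found in blood cells, and the interferon-induced Ifi207 was the tenth. Not all were limited to blood cells. In the control library Lyve1 stood at 416 CPM in endothelial cells and F13a1 at 106 CPM in Pi16 and Dpp4 fibroblasts.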

How the data were processed

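Sorted periosteal cells were profiled in 2 BD Rhapsody libraries, 1 per genotype. What the authors deposited were raw counts of UMIs, as 1 matrix of genes by cells per library. The submitters' processing notes name fastp, UMI-tools, STAR and Seurat 4.0.3, and the genome build is not given in the sources used here. Members and gene lists were chosen with earlier results of these data known. UMIs were summed over each group of cells in a library and scaled to CPM, since cells are not replicates, and no test was run with 1 library per genotype. Intervals were exact Poisson (CPM), exact conditional binomial (log2 ratios) and Clopper-Pearson (shares), and a count of 0 was given a limit of 3. Ratios for ranking, 2-fold counts and list medians had 0.5 UMIs added to both counts.

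Named genes were the 25 highest and 10 lowest by the less extreme ratio of the 2 libraries (30 UMIs and 50 CPM or more in the higher group), the 5 highest and 5 lowest between the libraries' members and, added after the data had been seen, the 30 highest and 10 lowest of the control library. From lists, genes with the most UMIs or the largest ratios were named, with others added after their values were seen. The rule's genes and mitochondrial, ribosomal protein, hemoglobin and Y-linked genes and Xist were left out of the ranks. Clusters came from scanpy 1.11.5 (Leiden resolution 1, 2000 variable genes less those of the rule). Doublets were called by Scrublet and kept. Intervals and calls were tested on simulated data. The libraries held 28030299 UMIs in 6118 barcodes (control) and 32337308 in 7469 (Piezo1 fl/fl). Some genes of the lists are not reported here.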

Additional observations from a re-analysis of the deposited data

Results flagged for a closer look

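For 3 named genes the ratio between members and other cells had opposite directions in the 2 libraries, with both intervals leaving out equal levels. The difference between the libraries was not tested, as each genotype has 1 library. The log2 ratio of Tnfaip6 was -2.86 (-3.86 to -2.02) in the control and 3.18 (2.99 to 3.37) in the Piezo1 fl/fl library, a difference of 6.04. That of Hbegf was -2.57 (-4.44 to -1.21) and 2.77 (2.42 to 3.11), a difference of 5.34. That of Fgl2 was 3.00 (2.88 to 3.12) and -5.04 (-10.35 to -2.56), a difference of -8.04. In the Piezo1 fl/fl library 225 of 228 Tnfaip6 UMIs and all 73 Hbegf UMIs of the members came from 1 cell.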

How the results depend on the processing

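The share of control members stayed within its interval under 13 of 15 alternatives, and was 1.46% with at least 2 markers and 0.547% with no endothelial gene allowed. The share of Piezo1 fl/fl members was 0.593% with at least 2 markers, 0% with at least 4, 0.0192% with thinned cells, and 0% and 0.0296% when Slc2a1 or Stra6 was left out of the rule. Of the outside perineurial markers, 3 of 10 had enough UMIs in the main setting. Their list median was 4.37 with at least 2 markers, 5.97 with at least 4 and 6.01 within the cluster alone, chosen after seeing the data. That of the fibroblast matrix was -0.39, -2.39 and -2.40 under the same 3 choices and -1.91 with thinned cells, and that of basement membrane receptors 0.61 with at least 2 markers and 0.61 with thinned cells. Between the libraries' members, 267 genes (7.8% of those tested, and 12.7% lower) were higher with at least 2 markers, 244 (18.4%) with the median set to 0, and 265 (30.1%) were lower with no endothelial gene allowed. All 30 control-ranked genes kept a ratio above 0 in 328 values (1.41 to 13.82). They had been picked as the highest of the same library and largely the same cells, so this is no check of their ratios. Directions turned for a few results. With at least 2 markers the control medians of the mural and the cartilage and lining lists were 0.17 and 1.31, and the Piezo1 fl/fl mural median was 0.92. At that setting the Piezo1 fl/fl ratios of S100a9 and Mmp13 were 0.53 (0.44 to 0.61) and 1.02 (0.89 to 1.16). With blood cells left out the blood list medians were 0.23 and 1.90 in the 2 libraries. Of the 10 blood genes 5 had 0 UMIs in members of each library in the main setting, so their ratios rest on the 0.5 added UMIs. The S100a9 ratios were then 0.14 (-5.17 to 2.66) and 0.42 (-1.86 to 1.97). The Piezo1 fl/fl ratios of Pcolce2 and Spon2 were -0.031 (-0.81 to 0.65) and -0.94 (-6.24 to 1.55). Spon2 was at -0.83 (-6.13 to 1.65) with a narrower range of genes per cell, and Cstb in the control library at -0.18 (-1.31 to 0.75) with thinned cells. The intervals of the S100a9 and Mmp13 ratios with at least 2 markers left out 0. The other intervals given here include 0, so the direction of those ratios is open. The causes were not tested. No list or gene value was computed from fewer than 5 members, so at least 4 markers and thinned cells give none for the Piezo1 fl/fl library. No paired analysis was possible because each genotype has 1 library and no test was run. Depth limits what can be said of genes with 0 UMIs in 46 or 7 cells, whose levels below 13.2 and 32.6 CPM cannot be seen.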
